A study of Mus musculus with 18 samples.

Results

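The genes described here are 10 members of the interleukin-1 (IL-1) family and of the inflammasome, measured in bone marrow-derived macrophages (BMDMs) with and without prolyl endopeptidase (Prep). They were taken by name as a gene family, with earlier results of these data known: the cytokines Il1a, Il1b and Il18, the antagonists Il1rn and Il18bp, the sensor Nlrp3, the adaptor Pycard, the caspases Casp1 and Casp4, and the pore protein gene Gsdmd. All 10 were found among the 16314 gene symbols of the count table, and all 10 were among the 12021 genes that passed the filter on low counts. BMDMs were grown with M-CSF from femoral bone marrow of Prep-/- mice and of their Prep+/- littermates on a C57BL6/J background. M0 BMDMs were left unstimulated, M1 BMDMs received LPS at 50 ng/ml for 24 h, and M2 BMDMs received IL-4 and IL-13 at 20 ng/ml each for 24 h. Each genotype in each state comprised 3 biological replicates, so that 18 libraries in 6 groups were sequenced. The control mice lacked 1 Prep allele, and no wild-type group was part of the comparison. How the null allele was made and the age of the donor mice are not given in the sources used here.

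IL-1 alpha and IL-1 beta are cytokines that act on the same receptor, and Il1rn encodes the receptor antagonist that competes with them for it. Transcription of Il1b and Nlrp3 is the priming step that Toll-like receptor ligands such as LPS provide in macrophages. NLRP3 then senses damage, recruits the adaptor ASC (the product of Pycard) and activates caspase-1, which cleaves pro-IL-1 beta, pro-IL-18 and gasdermin D. Caspase-11, encoded by Casp4 in the mouse, binds cytosolic LPS and also cleaves gasdermin D, whose fragment forms pores in the plasma membrane. IL-18 binding protein, from Il18bp, is a soluble antagonist that binds IL-18. These steps after transcription were not measured, since RNA-seq reports mRNA alone.

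The sequences just before the transcription start are shown for 5 members that were differentially expressed between the genotypes, which include the 3 that were lower in M1 and the 2 that were higher there. Each stretch is the 250 bases before a RefSeq start site of GRCm38.p6, read 5' to 3' along the gene, and capitals mark matches to the motifs searched. Il1a lies at chr2:129309973-129310222 on the minus strand and Il1b at chr2:129371140-129371389 on the minus strand. Nlrp3 lies at chr11:59542436-59542685 on the plus strand, Il18bp at chr7:102018233-102018482 on the minus strand, and Casp4 at chr9:5308599-5308848 on the plus strand. For Nlrp3 and Casp4 the first of 2 RefSeq entries is printed.
Il1a: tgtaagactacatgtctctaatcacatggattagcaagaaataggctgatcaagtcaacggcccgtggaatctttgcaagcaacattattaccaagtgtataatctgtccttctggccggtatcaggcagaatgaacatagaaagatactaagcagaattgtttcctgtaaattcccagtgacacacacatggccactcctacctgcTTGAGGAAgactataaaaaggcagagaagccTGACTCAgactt
Il1b: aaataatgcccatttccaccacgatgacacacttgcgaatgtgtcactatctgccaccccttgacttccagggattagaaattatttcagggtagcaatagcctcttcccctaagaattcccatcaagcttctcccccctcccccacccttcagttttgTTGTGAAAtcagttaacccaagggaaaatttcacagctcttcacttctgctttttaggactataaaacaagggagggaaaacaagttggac
Nlrp3: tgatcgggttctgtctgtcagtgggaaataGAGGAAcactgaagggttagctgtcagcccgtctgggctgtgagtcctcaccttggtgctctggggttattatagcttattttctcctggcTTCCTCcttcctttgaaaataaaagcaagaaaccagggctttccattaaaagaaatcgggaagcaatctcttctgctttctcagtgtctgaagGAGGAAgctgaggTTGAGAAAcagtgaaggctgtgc
Il18bp: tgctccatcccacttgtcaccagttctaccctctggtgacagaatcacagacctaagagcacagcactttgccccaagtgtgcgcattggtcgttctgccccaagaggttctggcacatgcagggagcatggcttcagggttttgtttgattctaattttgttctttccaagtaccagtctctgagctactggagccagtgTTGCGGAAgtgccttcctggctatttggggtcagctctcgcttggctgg
Casp4: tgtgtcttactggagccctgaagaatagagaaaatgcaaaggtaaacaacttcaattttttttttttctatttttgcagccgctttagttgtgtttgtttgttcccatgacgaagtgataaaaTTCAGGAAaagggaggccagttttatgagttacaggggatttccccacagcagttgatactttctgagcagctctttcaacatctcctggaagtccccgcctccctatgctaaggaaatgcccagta
The motifs were GAGGAA for PU.1, GGGANTTTC for NF-kB, TTNNGNAA for C/EBP, GAAANNGAA for the interferon response element and TGANTCA for AP-1, each searched on both strands. Among 32851 mouse promoter windows of the same length, 23.3% held the PU.1 letters, 0.941% the NF-kB letters, 36.8% the C/EBP letters, 7.13% the interferon response letters and 6.75% the AP-1 letters. In Il1a the PU.1 letters stood 41 to 36 bases before the start, within a C/EBP match at 43 to 36, and an AP-1 match stood at 12 to 6. In Il1b a single match was found, to C/EBP, at 91 to 84 bases before the start. The printed Nlrp3 window held 3 PU.1 matches and a C/EBP match. Its second RefSeq window (chr11:59541319-59541568) held 2 C/EBP matches and none to PU.1. Of the letters searched, the windows of Il18bp and Casp4 matched those of C/EBP alone. RefSeq entries were found for 9 of the 10 members. The search matched exact letters, so variant forms of a motif were missed, and it says nothing of binding. The Casp4 window, for example, holds ggggatttcccc, which the NF-kB letters searched do not match.

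The libraries held between 19068237 and 22598279 counts each. Prep itself, checked first, gave 551 to 899.99 normalized counts per library in Prep+/- BMDMs and 31.3 to 68.1 in Prep-/- BMDMs. Normalized counts are counts divided by the effective size of the library relative to the mean library. Macrophage markers summed to 10027 to 48180.0 CPM (counts scaled to a common library total), with all 8 of 8 listed genes present. Lyz2 held the highest levels of that list, at 6501 to 39295 CPM over the 18 libraries. Neutrophil and granulocyte precursor markers (10 of 10 in the table) summed to 25.2 to 155 CPM, with S100a8 reaching 65.4, S100a9 46.2, Ngp 45.1, Ltf 28.8 and Camp 8.99 CPM in single libraries, and Ly6g, Elane, Retnlg, Cxcr2 and Mpo at most 1.09 CPM. The third Prep-/- libraries of M0 and of M2 stood apart from their replicates: the chi-square per degree of freedom was 106 to 114 in the 4 pairs that hold them and 9.5 to 47.3 in the other 14 pairs. The third Prep-/- M0 library held 256 counts of the hepatocyte gene Alb, against 0 to 2 in every other library. For DEGs among the members, values without these libraries are given beside the results or together after them. In bulk RNA, fewer cells that express a gene cannot be told apart from less of its mRNA per cell.

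Between genotypes, the 5 members that were DEGs in M0 were all higher in Prep-/- BMDMs, whereas the cytokine genes Il1a and Il1b were lower in M1. DEGs (differentially expressed genes) were called at an adjusted p under 0.05 in edgeR's quasi-likelihood test and a fold change over 1.5. In M0, 5 of 10 members were higher in Prep-/- BMDMs and 0 were lower, where 15.4% of all tested genes were higher and 17.2% were lower. In M1, 2 members were higher and 3 were lower, against 12.3% and 10.2% of all genes. In M2, 2 members were higher and 0 were lower, against 6.37% and 9.82% of all genes. In M0 the members had a median log2 fold change of 0.56, beside 0.019 for all tested genes. For M1 these medians were 0.12 and 0.036, and for M2 they were 0.11 and 0.027. Il18bp was higher in all 3 states. Gsdmd and Casp4 were each higher in a pair of states.

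More members were called after LPS than after IL-4 and IL-13. In M1 against M0, all 10 members rose and 0 fell in Prep+/- BMDMs, where 16.7% of all genes rose and 20.9% fell. In Prep-/- BMDMs 8 rose and 0 fell, and the background was 20.9% and 21.0%. In M2 against M0, 1 member rose and 1 fell in Prep+/- BMDMs, with 6.09% and 6.77% of all genes called. In Prep-/- BMDMs 1 rose and 3 fell, with 14.7% and 15.5% of all genes called. The median log2 fold change of the members in M1 was 1.81 in Prep+/- and 1.77 in Prep-/- BMDMs, while that of all tested genes was -0.033 and 0.00. These comparisons share their M0 or M1 libraries with the comparisons between genotypes and are not independent of them.

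**Figure D1:**
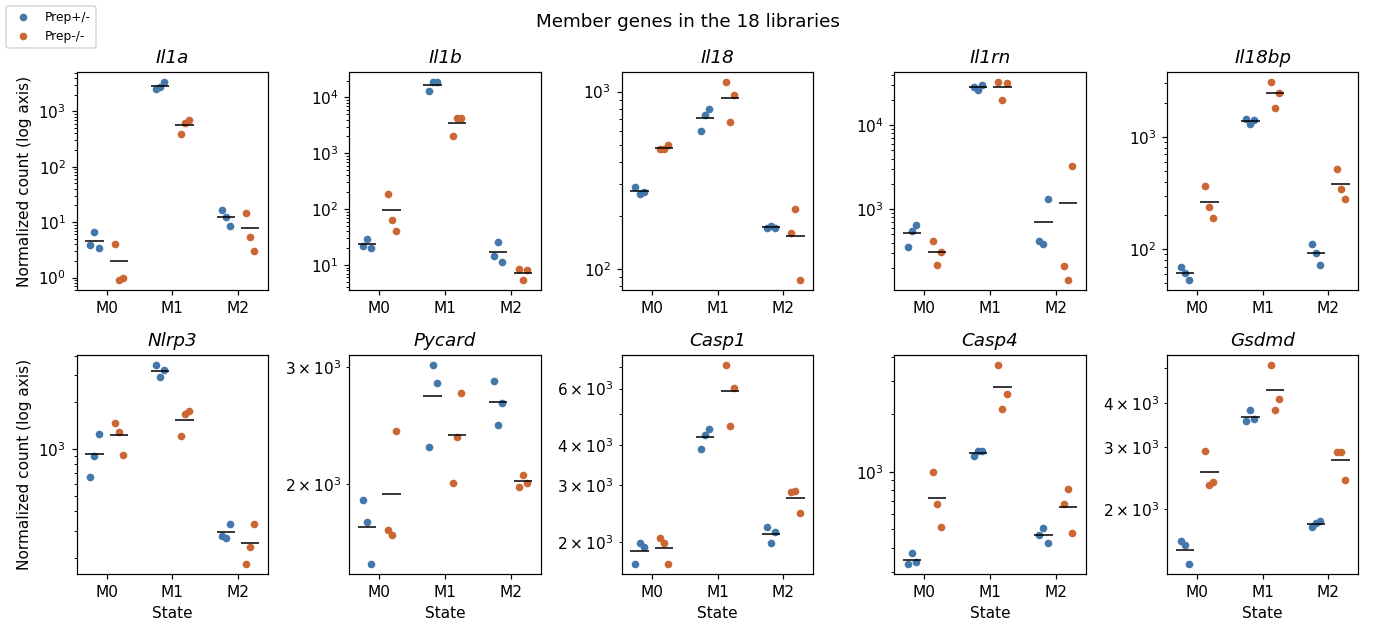
Normalized count of each of the 10 member genes in the 18 libraries (log axis) by state, with blue points for Prep+/- and orange points for Prep-/- libraries and a line at the mean of 3 replicates. Il1b and Il1a are highest in M1 in both genotypes, and in M1 the Prep-/- points of both genes lie below all Prep+/- points.

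The knockout effect on Il1b had opposite signs in M0 and M1. In M0 the normalized counts of Il1b were 22.2, 29.2 and 20.4 in Prep+/- libraries and 188, 64.7 and 41.0 in Prep-/- libraries. The genotypes did not overlap, and the first Prep-/- library stood highest. The log2 fold change was 2.01 ± 0.49 (SE), a 4.04-fold higher level at an adjusted p of 0.00309. Without the first Prep-/- library it was 1.14 (adjusted p = 0.0328), and without the third it was 2.36 (adjusted p = 0.000556).

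Some marker sums were higher in Prep-/- than in Prep+/- M0 BMDMs, as Il1b was. The summed neutrophil and granulocyte precursor markers reached 155, 68.1 and 82.6 CPM in Prep-/- M0 BMDMs, where the Prep+/- range was 31.6 to 43.7 CPM. The library with the highest sum was also the library with the highest Il1b. Ly6g reached at most 0.142 CPM and Retnlg at most 0.379 CPM in any of the 18 libraries, while S100a8, S100a9, Ngp and Ltf held the highest levels of the list. The macrophage sum moved the same way, at 19002 to 22408 CPM in Prep+/- and 30386 to 48180.0 CPM in Prep-/- M0 BMDMs. It too was highest in the library with the highest Il1b. Lyz2 held the highest levels of the macrophage list, whose genes were not compared singly between genotypes. The B cell list, of which Cd79b made up nearly all, summed to 3.01 to 4.79 CPM and to 8.66 to 11.5 CPM. The stromal list overlapped, at 12.4 to 15.6 CPM in Prep+/- and 0.692 to 17.4 CPM in Prep-/- libraries. The part of these markers in the result was not tested.

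In M1 the order of the genotypes was the other way round. Il1b gave 12909, 18853 and 19015 normalized counts in Prep+/- libraries and 2036, 4321 and 4233 in Prep-/- libraries. Every Prep-/- library was below every Prep+/- library, and the mean of Prep+/- M1 was the highest of the 6 groups. Its log2 fold change was -2.26 ± 0.37 (4.79-fold lower, adjusted p = 0.000385), and it passed as a DEG under all 14 alternatives tried for it. The summed neutrophil markers were 79.3 to 145 CPM in Prep+/- M1 and 51.0 to 71.7 CPM in Prep-/- M1 libraries. The macrophage sum was also lower without overlap, at 45757 to 47208 CPM in Prep+/- and 31000 to 37043 CPM in Prep-/- M1 libraries. So was the stromal list, at 16.1 to 16.8 and 1.02 to 14.2 CPM. The B cell list was higher, at 2.06 to 2.59 and 5.09 to 6.96 CPM. The part of these markers in the result was not tested.

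In M2 Il1b was close to the limit of counting. The normalized counts were 14.4, 25.7 and 11.3 in Prep+/- libraries and 8.52, 5.29 and 8.12 in Prep-/- libraries. The libraries did not overlap, but the log2 fold change of -1.22 ± 0.79 did not pass the test (adjusted p = 0.276). Against M0, Il1b in Prep-/- BMDMs fell by 3.71 ± 0.62 on the log2 scale (adjusted p = 0.000158), and without the first Prep-/- M0 library the log2 fold change was -2.84. In Prep+/- BMDMs the corresponding value was -0.47 ± 0.61 (adjusted p = 0.643).

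Il1b rose with LPS in both genotypes, and it rose less in Prep-/- BMDMs. From M0 to M1 it rose 702-fold in Prep+/- BMDMs (log2 fold change 9.46 ± 0.54, adjusted p = 9.32e-10) and 36.3-fold in Prep-/- BMDMs (5.18 ± 0.44, adjusted p = 6.30e-08). Without the first Prep-/- M0 library the latter was 6.05 on the log2 scale. The difference, tested as an interaction, was -4.27 ± 0.61 (adjusted p = 0.000179, and -3.41 without that library). In that interaction of M1 with M0, 0 of 10 members were higher and 3 were lower (Il1b, Il18bp and Nlrp3), against 12.0% and 9.15% of all genes. The same test between M2 and M0 called 0 members higher and 1 lower, Il1b at -3.24 ± 0.92 (adjusted p = 0.0365), against 4.53% and 4.13% of all genes. That call was lost, at adjusted p of 0.0556 to 0.122, without the second or the third Prep+/- M0 library, the first or the second Prep+/- M2 library, or the second or the third Prep-/- M2 library. Without the first Prep-/- M0 library the value was -2.37 (adjusted p = 0.0479).

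Il1a, the sister cytokine, was nearly silent outside M1. Its raw counts in M0 were 4, 8 and 4 in Prep+/- libraries and 4, 1 and 1 in Prep-/- libraries. The log2 fold change in M0 was -1.24 ± 0.81 (adjusted p = 0.216), and the ratio of the summed counts was 0.406 with an exact 95% interval of 0.130 to 1.09 for counting error. Without the first Prep-/- library the log2 fold change was -2.19 (adjusted p = 0.106). A difference of Il1a in M0 was not detected.

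LPS brought Il1a to a level at which the genotypes separated. In M1 it gave 2509.65, 2717 and 3415 normalized counts in Prep+/- libraries and 396, 606 and 684 in Prep-/- libraries. No Prep-/- library reached the Prep+/- range. Its log2 fold change was -2.36 ± 0.24 (5.12-fold lower, adjusted p = 1.25e-05). From M0 to M1 the summed counts rose 611-fold in Prep+/- BMDMs, with an interval of 376 to 1069, and 296-fold in Prep-/- BMDMs, with an interval of 136 to 807. The fitted log2 value of the latter, 8.11, was 9.06 without the first Prep-/- M0 library. The interaction of Il1a was -1.12 ± 1.004 (adjusted p = 0.437, and -0.17 without the first Prep-/- M0 library), so that a difference between its LPS responses was not shown.

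In M2 Il1a stayed low. It gave 16.2, 12.4 and 8.49 normalized counts in Prep+/- libraries and 14.9, 5.29 and 3.04 in Prep-/- libraries, which overlapped. It was called higher in M2 than in M0 of Prep-/- BMDMs (log2 fold change 1.94 ± 0.75, adjusted p = 0.0455), on 22 counts against 6. This call was lost without the first Prep-/- M2 library (1.04, adjusted p = 0.334), without the second Prep-/- M0 library (1.57, adjusted p = 0.148) and without the third (1.64, adjusted p = 0.131). Without the first Prep-/- M0 library it was 2.89.

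Il18 was higher in Prep-/- BMDMs in M0 and was not a DEG in M1 or M2. In M0 it gave 291, 266 and 273 normalized counts in Prep+/- libraries and 472, 472 and 497 in Prep-/- libraries. The replicates were tight and the genotypes separate, with a log2 fold change of 0.80 ± 0.23 (1.74-fold higher, adjusted p = 0.00897). In M1 the Prep+/- libraries held 603, 738 and 800.3 and the Prep-/- libraries 1135, 671 and 957, and they overlapped (0.37 ± 0.22, adjusted p = 0.204). LPS raised Il18 2.58-fold in Prep+/- BMDMs (adjusted p = 0.000101) and 1.92-fold in Prep-/- BMDMs (adjusted p = 0.00198).

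In M2 the mean of Il18 was at its lowest in each genotype. The values were 171, 175 and 169.9 in Prep+/- libraries and 159.7, 217 and 86.2 in Prep-/- libraries, and the lowest came from the third Prep-/- library. The log2 fold change between genotypes was -0.16 ± 0.24 (adjusted p = 0.675), and without that library it was 0.14 (adjusted p = 0.617). From M0 to M2 Il18 fell by 1.64 ± 0.24 on the log2 scale in Prep-/- BMDMs (adjusted p = 4.04e-05, and -1.37 without the third M2 library). In Prep+/- BMDMs the value was -0.68 ± 0.24 (adjusted p = 0.0532), and DESeq2 gave -0.70 (adjusted p = 0.0237). Of the Il18 transcript, 206 bases matched Furin at 90.3% identity, so a small share of its reads could be ambiguous.

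Il1rn, the gene of the IL-1 receptor antagonist, was not a DEG between genotypes in any state. In M1 it gave 28773, 26393 and 30092 normalized counts in Prep+/- libraries and 32816, 19941 and 31625 in Prep-/- libraries. The second Prep-/- library was the lowest of the 6, and the other two were the highest. Its log2 fold change was -0.015 ± 0.77 (adjusted p = 0.991), with a wide error that does not bound the difference closely. The error rests on a spread estimated over all 6 groups, including the M2 replicates described next. Within M1 the SD was 1875 on a mean of 28419 in Prep+/- and 7115 on a mean of 28127 in Prep-/- libraries.

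The M2 replicates of Il1rn were far apart. In M2 Il1rn gave 419, 382 and 1327 normalized counts in Prep+/- libraries and 209.7, 142 and 3245 in Prep-/- libraries. In both genotypes the library numbered 3 was the highest. The log2 fold change between genotypes was 0.76 ± 0.79 (adjusted p = 0.520), and without both libraries numbered 3 it was -1.17 (adjusted p = 0.0155), a reversed sign that then passed as a DEG. Leaving out the third Prep-/- library alone gave -1.998 (adjusted p = 0.00452). The raw counts of Il1rl1, the IL-33 receptor gene, were likewise highest in these 2 libraries, at 529 and 1690, against 67 to 242 in the other 4 M2 libraries. From M0 to M2 in Prep-/- BMDMs, Il1rn had a log2 fold change of 1.94 ± 0.82 (adjusted p = 0.0640), which was 2.41 without the first M2 library (adjusted p = 0.0198), 2.44 without the second (adjusted p = 0.0116) and -0.84 without the third (adjusted p = 0.180).

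Il1rn was strongly raised by LPS in both genotypes. In M0 it gave 356, 548 and 655 normalized counts in Prep+/- libraries and 416, 216 and 306 in Prep-/- libraries, which overlapped (log2 fold change -0.74 ± 0.80, adjusted p = 0.472). The rise from M0 to M1 was 54.6-fold in Prep+/- BMDMs (log2 fold change 5.77 ± 0.95, adjusted p = 7.59e-05) and 90.1-fold in Prep-/- BMDMs (6.49 ± 0.98, adjusted p = 3.14e-05). The interaction was 0.72 ± 1.11 (adjusted p = 0.662). These errors rest on the same spread over all groups, which includes the M2 replicates.

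Il18bp, which encodes the soluble IL-18 antagonist, was higher in Prep-/- BMDMs in every state. In M0 it gave 69.5, 61.8 and 52.6 normalized counts in Prep+/- libraries and 366, 236 and 188 in Prep-/- libraries. In M2 it gave 111, 92.3 and 71.7 against 514, 346 and 279. The genotypes did not overlap in either state, and the log2 fold changes were 2.10 ± 0.28 in M0 (4.30-fold, adjusted p = 2.19e-05) and 2.05 ± 0.27 in M2 (4.13-fold, adjusted p = 6.84e-05). Without the third Prep-/- library they were 2.28 in M0 and 2.24 in M2. From M0 to M2 in Prep-/- BMDMs the value was 0.53 ± 0.25 (adjusted p = 0.102), and it was 0.84 without the first M0 library (adjusted p = 0.0158) and 0.70 without the third M2 library (adjusted p = 0.0390).

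The difference of Il18bp was smaller in M1. The values were 1429.7, 1303 and 1413 in Prep+/- libraries and 3099, 1825 and 2470.4 in Prep-/- libraries, with no overlap. Its log2 fold change was 0.83 ± 0.24 (1.78-fold higher, adjusted p = 0.0135). It lost the call without the second Prep+/- library (0.79, adjusted p = 0.0555) and without the first Prep-/- library (0.62, adjusted p = 0.0911). LPS raised Il18bp 22.6-fold in Prep+/- and 9.36-fold in Prep-/- BMDMs, and the interaction was -1.27 ± 0.37 (adjusted p = 0.0194). Without the first Prep-/- M0 library the interaction was -0.96 (adjusted p = 0.0567), and without the third Prep+/- M0 library it was -1.17 (adjusted p = 0.0579).

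**Figure D2:**
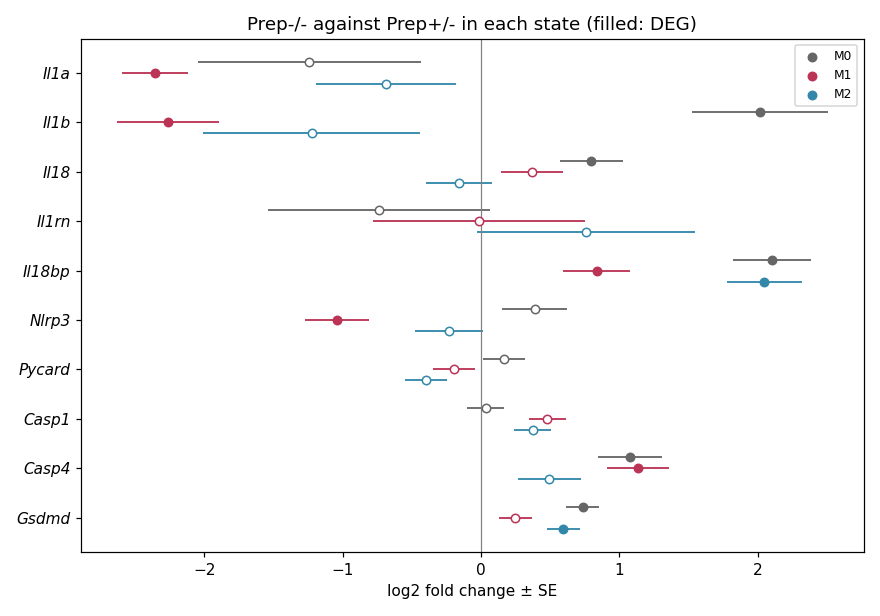
log2 fold change of Prep-/- against Prep+/- BMDMs (x axis, with SE bars) for each member gene (y axis) in M0 (grey), M1 (red) and M2 (blue), with filled points for DEGs. Il1b lies at 2.01 in M0 and at -2.26 in M1, Il1a and Nlrp3 are filled on the left in M1 alone, and Il18bp is filled on the right in all 3 states.

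Nlrp3, the sensor, was lower in Prep-/- BMDMs in M1 and was not a DEG in M0 or M2. In M1 it gave 3469, 2905 and 3214 normalized counts in Prep+/- libraries and 1213, 1693 and 1757 in Prep-/- libraries. The genotypes were separate, with a log2 fold change of -1.04 ± 0.23 (2.06-fold lower, adjusted p = 0.00309). A test against the 1.5-fold threshold itself gave an adjusted p of 0.109, and Il18bp and Casp4 also lost their M1 calls in it. In M0 the Prep+/- libraries held 668, 899 and 1252 and the Prep-/- libraries 1478, 1292 and 917, and they overlapped (0.39 ± 0.23, adjusted p = 0.182). Without the third Prep+/- M0 library, the highest of its group, the log2 fold change was 0.63 (adjusted p = 0.0466).

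LPS raised Nlrp3 3.40-fold in Prep+/- BMDMs (log2 fold change 1.77 ± 0.24, adjusted p = 9.56e-06). In Prep-/- BMDMs the log2 fold change was 0.34 ± 0.23 (adjusted p = 0.223). The difference between these responses was -1.43 ± 0.33 in the interaction test (adjusted p = 0.00551). In M2 the gene was low in both genotypes, at 279, 271 and 333 normalized counts in Prep+/- libraries and 183, 236 and 331 in Prep-/- libraries. It fell from M0 by 1.68 ± 0.24 on the log2 scale in Prep+/- BMDMs (adjusted p = 9.86e-05) and by 2.30 ± 0.25 in Prep-/- BMDMs (adjusted p = 1.82e-06).

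Pycard, the adaptor, varied little. Its normalized counts ran in M0 from 1515 to 1892 in Prep+/- and from 1675 to 2407 in Prep-/- libraries. In M1 they ran from 2273 to 3022 and from 2009 to 2744, and in M2 from 2453 to 2866 and from 1977 to 2066. It was a DEG between genotypes in 0 of 3 states, with 0.17 ± 0.15 on the log2 scale in M0 (adjusted p = 0.382), -0.19 ± 0.15 in M1 (adjusted p = 0.324) and -0.40 ± 0.15 in M2 (adjusted p = 0.0652). The M2 libraries nevertheless did not overlap. In Prep+/- BMDMs Pycard rose 1.58-fold with LPS (adjusted p = 0.00158) and 1.54-fold with IL-4 and IL-13 (adjusted p = 0.00730). Both sit close to the fold change criterion. The rise in M1 was under it without the second M1 library (0.53 on the log2 scale), and the rise in M2 was under it without the third M0 library (0.54) or the first M2 library (0.54, adjusted p = 0.0546).

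Of the caspase genes, Casp4 was a DEG between genotypes and Casp1 was not. Casp1, the inflammasome caspase, gave in M0 1710.3, 1992 and 1926 normalized counts in Prep+/- libraries and 2055, 1991 and 1713 in Prep-/- libraries, with a log2 fold change of 0.033 ± 0.13 (adjusted p = 0.860). In M1 it gave 3904, 4296 and 4503 against 7086, 4587 and 6022. The M1 libraries did not overlap, and the log2 fold change of 0.48 ± 0.13 passed the test (adjusted p = 0.0116) but was under the 1.5-fold criterion. Without the second Prep-/- library it was 0.62 (adjusted p = 0.00171) and a DEG. In M2 it was 0.37 ± 0.13 (adjusted p = 0.0529). LPS raised Casp1 2.26-fold in Prep+/- and 3.07-fold in Prep-/- BMDMs.

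Casp4 was higher in Prep-/- BMDMs in M0 and M1. In M0 it gave 329, 374 and 337 normalized counts in Prep+/- libraries and 1001, 677 and 515 in Prep-/- libraries. In M1 it gave 1216, 1282 and 1282 against 3610.1, 2128 and 2551. The genotypes were separate in both states, with log2 fold changes of 1.07 ± 0.23 (2.11-fold, adjusted p = 0.00109) and 1.13 ± 0.22 (2.19-fold, adjusted p = 0.00134). The interaction of 0.058 ± 0.32 (adjusted p = 0.912) did not show a difference between these effects.

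In M2 Casp4 overlapped. The values were 467, 507 and 425 in Prep+/- libraries and 681, 809 and 479.8 in Prep-/- libraries, with a log2 fold change of 0.49 ± 0.23 (adjusted p = 0.124). Without the third Prep-/- library it was 0.69 (adjusted p = 0.0244) and a DEG. LPS raised Casp4 3.63-fold in Prep+/- and 3.78-fold in Prep-/- BMDMs.

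Gsdmd, the gene of the pore protein that both caspases cleave, was higher in Prep-/- BMDMs in M0 and M2. In M0 it gave 1624, 1579 and 1400.4 normalized counts in Prep+/- libraries and 2930.0, 2347 and 2383 in Prep-/- libraries. In M2 it gave 1779, 1834 and 1847 against 2912, 2911 and 2425. The genotypes were separate in both states, with log2 fold changes of 0.73 ± 0.12 (1.66-fold, adjusted p = 0.000128) and 0.60 ± 0.12 (1.51-fold, adjusted p = 0.00176). The M2 value stands at the 1.5-fold criterion and was under it without the second Prep+/- library (0.57), the first Prep-/- library (0.55) or the second Prep-/- library (0.56), each time with an adjusted p under 0.05.

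In M1 the Gsdmd libraries overlapped. The Prep+/- libraries held 3549, 3822 and 3588 and the Prep-/- libraries 5105, 3816 and 4099, with a log2 fold change of 0.25 ± 0.12 (adjusted p = 0.113). The interaction of M1 with M0 was -0.49 ± 0.17 (adjusted p = 0.0456), under the fold change criterion, and -0.63 without the first Prep-/- M1 library (adjusted p = 0.0122), which is past it. LPS raised Gsdmd 2.38-fold in Prep+/- and 1.70-fold in Prep-/- BMDMs.

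Leaving out the third Prep-/- M0 library did not change which members were DEGs in M0. The log2 fold change became 0.76 for Il18 (adjusted p = 0.0218), 1.26 for Casp4 (adjusted p = 0.000252) and 0.77 for Gsdmd (adjusted p = 0.000199). For Nlrp3, which was not a DEG, it became 0.55 (adjusted p = 0.0585). The same 8 members rose with LPS in Prep-/- BMDMs, with 4.79 for Il1b, 7.79 for Il1a, 6.45 for Il1rn and 3.01 for Il18bp on the log2 scale and 0.69 to 1.69 for the others, and Pycard reached 0.45 (adjusted p = 0.0131), under the fold change criterion. The interactions of M1 with M0 became -4.63 for Il1b, -1.60 for Nlrp3 and -1.46 for Il18bp, each past the threshold. Without the third Prep-/- M2 library the fold change of Gsdmd in M2 was 0.69 (adjusted p = 0.000474). From M0 to M2 in Prep-/- BMDMs Il1b then had -3.80, Nlrp3 -2.56 and Il1a 2.32. Without the third Prep-/- M0 library this step gave -4.08 for Il1b, -2.48 for Nlrp3 and -1.62 for Il18. The knockout effect on Il1b in M2 minus that in M0 was then -3.58 (adjusted p = 0.0141).

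**Figure D3:**
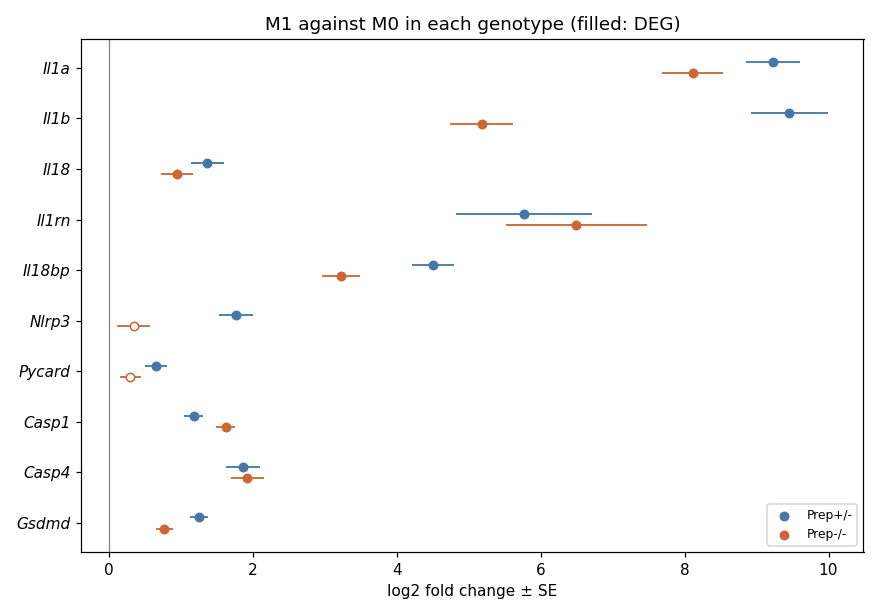
log2 fold change of M1 against M0 (x axis, with SE bars) for each member gene (y axis) in Prep+/- (blue) and Prep-/- BMDMs (orange), with filled points for DEGs. Il1b moves from 9.46 in Prep+/- to 5.18 in Prep-/- BMDMs, and Nlrp3 and Pycard are filled in Prep+/- alone.

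Il1b was compared with each other member by the ratio of their counts within a library, which does not depend on the scaling between libraries. With 3 libraries against 3, the smallest two-sided p of the exact permutation test is 0.10, so this test could not pass 0.05. In M1 the log2 ratio of Il1b to Il1a was 2.54 in Prep+/- and 2.61 in Prep-/- BMDMs, a difference of 0.063 (exact permutation p = 0.80, adjusted over 9 ratios 0.80). Against each of the other 8 members the ratio was lower in Prep-/- M1 without overlap, with differences from -1.26 for Nlrp3 to -3.42 for Casp4 (exact permutation p = 0.10, adjusted 0.113, for each).

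Counts of the antagonist gene Il1rn exceeded those of Il1b in every library, by different ratios. In M1 there were 1.40 to 2.23 counts of Il1rn for each count of Il1b in Prep+/- libraries and 4.61 to 16.1 in Prep-/- libraries, which did not overlap (exact permutation p = 0.10). In M0 there were 16.0 to 32.2 in Prep+/- libraries and 2.21 to 7.45 in Prep-/- libraries, again without overlap and in the other direction (exact permutation p = 0.10). In M2 the ranges were 14.8 to 117 and 24.6 to 399.9, and they overlapped (exact permutation p = 0.70).

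The ratio of Il18bp to Il18 was higher in Prep-/- BMDMs in all 3 states. In M0 there were 0.193 to 0.238 counts of Il18bp for each count of Il18 in Prep+/- libraries and 0.379 to 0.777 in Prep-/- libraries. In M1 the ranges were 1.77 to 2.37 and 2.58 to 2.73, and in M2 they were 0.422 to 0.647 and 1.60 to 3.24. The genotypes did not overlap in any state, with log2 differences of 1.25 in M0, 0.46 in M1 and 2.28 in M2. The exact permutation p was 0.10 in each, the smallest that 3 libraries against 3 allow. Within M0, Il1a per Il1b was 0.167 to 0.229 in Prep+/- and 0.0137 to 0.0238 in Prep-/- libraries, on 1 to 8 counts of Il1a per library.

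**Figure D4:**
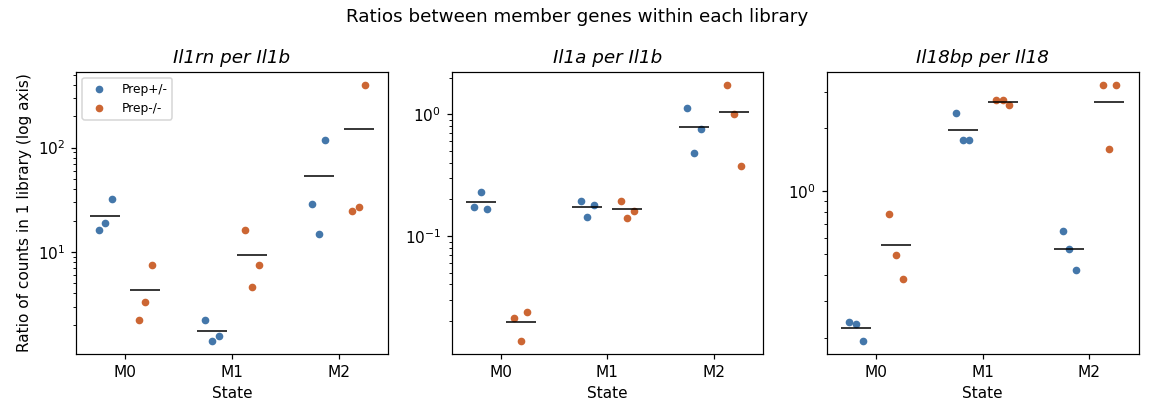
Counts of Il1rn per count of Il1b, of Il1a per count of Il1b and of Il18bp per count of Il18 in each library (log axes) by state, with blue points for Prep+/- and orange points for Prep-/- libraries and a line at the mean of 3 replicates. Il1rn per Il1b is lower in Prep-/- libraries in M0 and higher in M1, and Il1a per Il1b overlaps between genotypes in M1.

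Levels of different members were compared per kilobase of the canonical transcript of GENCODE vM39. In Prep+/- M0 the order ran from Casp1 at 1225 normalized counts per kilobase through Gsdmd at 777 and Pycard at 417 down to Il1b at 17.6 and Il1a at 1.36. In Prep+/- M1 Il1b stood first at 12482 (SD 2566), followed by Il1rn at 11487 (SD 758) and Casp1 at 2766. The spread of Il1b covers its distance from Il1rn, so their order is not settled. In Prep-/- M1 Il1rn stood first at 11369 (SD 2876), followed by Casp1 at 3852 (SD 819) and Il1b at 2603 (SD 955). The place of Pycard rests on an annotated transcript of 4122 bases, and with exon unions in place of canonical transcripts Casp4 in Prep+/- M0 moved from 240.5 to 66.0 per kilobase and Il1b in Prep-/- M1 came after Gsdmd. Across groups, the order of Il1b by its mean was Prep+/- M1, Prep-/- M1, Prep-/- M0, Prep+/- M0, Prep+/- M2 and Prep-/- M2, and of these neighbours only Prep+/- M0 and Prep+/- M2 overlapped.

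Positions are those of GRCm39. Il1a (chr2:129140291-129152098) and Il1b (chr2:129206490-129213059) lie on the minus strand of chromosome 2, and Il1rn (chr2:24226865-24241506) lies on its plus strand. Casp1 (chr9:5298508-5307290) and Casp4 (chr9:5308828-5336783) are neighbours on the plus strand of chromosome 9, which also holds Il18 (chr9:50466081-50493633). Genes on the opposite strand overlap the spans of 7 of the members, among them Gm14023 at Il1a and Il1b and Il1bos at Il1b. Whether their exons overlap was not checked. The kit marks strand, but whether counting used it is not given in the sources used here. If it did not, reads from shared exons of these pairs could not be told apart. No opposite-strand gene overlaps Il1rn, Nlrp3 or Casp4.

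The other genes of the pathway were taken from a list of 55 receptors, signalling proteins, sensors, caspases and regulators, of which 44 could be tested. Comparing genotypes in M0, 14 of 44 passed as higher in Prep-/- BMDMs and 4 as lower, beside 15.4% and 17.2% of all tested genes. For M1 these counts were 15 and 1, beside 12.3% and 10.2%. For M2 they were 5 and 5, beside 6.37% and 9.82%, which is near the background. In M0 their median log2 fold change was 0.25 beside 0.019 for all tested genes, for M1 it was 0.41 beside 0.036, and for M2 it was 0.21 beside 0.027. None of the 6 other IL-1 family ligands listed, such as Il33 and the IL-36 genes, passed the filter on low counts. Among these, 13 inflammasome sensors were tested, of which 6 were higher in M0, 7 in M1 and 3 in M2, against the same background shares, and 0 were lower, a count too small to read a direction from.

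Of the receptors, Il1r1 encodes the signalling receptor of IL-1. Its raw counts in M0 were 0, 2 and 2 in Prep+/- libraries and 7, 6 and 4 in Prep-/- libraries. The ratio of the summed counts was 4.61 with an exact 95% interval of 1.502 to 18.8 for counting error (fitted log2 fold change 2.10 ± 0.67, adjusted p = 0.0164). No M0 library passed 0.332 CPM, so Il1r1 met the filter on low counts only through its M1 and M2 libraries. It is among the 14 listed genes counted as higher in M0. LPS raised its summed counts 82.3-fold in Prep+/- BMDMs, with an interval of 31.7 to 305. Il1rl2, the IL-36 receptor gene, gave 316, 271 and 312 normalized counts in Prep+/- M1 libraries and 88.0, 118 and 152 in Prep-/- M1 libraries. The libraries were separate, with a log2 fold change of -1.32 ± 0.20 (adjusted p = 0.000221). It was the 1 listed gene that was lower in M1, and LPS raised it by 3.76 ± 0.23 on the log2 scale in Prep+/- BMDMs (adjusted p = 1.95e-09). Sigirr, which encodes an inhibitory receptor of the family, gave 22.8, 24.98 and 23.1 normalized counts in Prep+/- M1 and 78.1, 59.8 and 58.2 in Prep-/- M1 libraries. It was higher by 1.46 ± 0.37 on the log2 scale (adjusted p = 0.00680). Il1rl1 fell with LPS from 66, 88 and 122 raw counts to 0, 3 and 1 in Prep+/- BMDMs, a ratio of 0.0198 with an interval of 0.00536 to 0.0513 (edgeR adjusted p = 0.00886).

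Of the sensors, Nlrp10 was higher in Prep-/- M1 and Mefv in Prep-/- M0 BMDMs. Nlrp10 gave 26.2, 14.3 and 17.95 normalized counts in Prep+/- M1 and 70.4, 69.4 and 64.6 in Prep-/- M1 libraries, a log2 fold change of 1.79 ± 0.27 (adjusted p = 0.000237). Mefv, the pyrin gene, gave 56.9, 78.5 and 43.3 in M0 libraries of Prep+/- mice and 389, 226 and 60.5 in those of Prep-/- mice. The third Prep-/- library lay within the Prep+/- range, and the log2 fold change was 1.91 ± 0.47 (adjusted p = 0.00330, and 2.35 without that library). With LPS in Prep+/- BMDMs Mefv rose by 4.01 ± 0.49 on the log2 scale (adjusted p = 3.19e-06), and Naip1, a sensor of bacterial secretion systems, rose by 3.98 ± 0.48 (adjusted p = 3.19e-06) from 3, 1 and 7 raw counts. The mouse Naip genes are near copies of one another, so the split of reads among them is uncertain.

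Of the downstream genes, Ninj1, whose protein ruptures the plasma membrane late in cell death, gave 4327, 3577 and 3164 normalized counts in M0 libraries of Prep+/- mice and 13098, 9611 and 10907 in those of Prep-/- mice. No libraries overlapped, with a log2 fold change of 1.60 ± 0.16 (adjusted p = 1.89e-06), and it was also higher in M1 (0.72 ± 0.16, adjusted p = 0.00286) and M2 (1.06 ± 0.16, adjusted p = 0.000189). Gsdme, another pore protein gene, gave 306, 415 and 401 in M0 libraries of Prep+/- mice and 72.3, 99.2 and 119 in those of Prep-/- mice. Gsdme was lower in all 3 knockout libraries, with a log2 fold change of -1.95 ± 0.26 (adjusted p = 1.94e-05). Without the third Prep-/- M0 library the M0 values were 1.61 for Ninj1 and -2.13 for Gsdme. Txnip, a binding partner of thioredoxin and NLRP3, was higher in M0 by 1.54 ± 0.15 (adjusted p = 1.33e-06). In M1 the ubiquitin ligase gene Peli1 was higher by 1.17 ± 0.15 (adjusted p = 7.59e-05).

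The genes whose log2 CPM ran most like that of Il1b over the 18 libraries were Ly6i (Pearson r = 0.992), Scarf1 (0.987), Fpr1 (0.985), Rac2 (0.984) and Plod3 (0.983). Of the members, Il1a was the closest at 0.929, in place 216 of all tested genes, and Pycard the farthest at 0.443. All these points share the same libraries and the step from M0 and M2 to M1. The values are given as a description.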

How the data were processed

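Stranded mRNA libraries were made from 18 BMDM cultures. Per the labels and methods, Trimmomatic 0.36, hisat2 2.2.1.0 (genome GRCm39) and stringtie2 were run, and the authors deposited raw counts per gene symbol. The annotation release, strand setting and treatment of multi-mapping reads are not given in the sources used here. From these counts, genes were kept with filterByExpr, libraries were scaled by TMM (factors 0.818 to 1.20), and all 18 libraries were fitted with 1 coefficient per group in edgeR 4.0.16 (quasi-likelihood test, R 4.3.3, limma 3.58.1), with Benjamini-Hochberg adjustment over 12021 genes. Groups come from the sample labels, and 0 columns were unused. The M2 knockout comparison (deviations of same-numbered libraries correlated at 0.249, 0.255 and 0.462) and M1 against M0 in Prep-/- BMDMs (0.201, 0.169 and 0.259) met the criterion for pairing by replicate number, from these correlations alone, since the labels do not say what a number marks. Ratios used a pseudocount of 0.5 on the log2 scale. Counting intervals cover counting error only.

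Named were all members, the 5 other listed genes with the largest change among DEGs that averaged 1 CPM or more over all 18 libraries, in each of 3 comparisons (M0 and M1 between genotypes, M1 against M0 in Prep+/-), and the 5 genes most like Il1b. 1 gene that this rule selects is not reported here. The members, lists and tests were chosen with earlier results of these data known. Alb and Il1rl1 in M2 were named after their values were seen. Alternatives were DESeq2 1.42.0 (Wald test), its size factors, other filters, glmTreat, compared groups only, a replicate block, and leaving out each library. Counts for M1 were simulated with 200 changed genes and the fitted trend of spread against expression level, without spread particular to a gene. In these counts 82% of 2-fold and 97% of 4-fold changes were recovered over 11862 genes, and 5.29% of calls were not changed genes. Genes with a larger spread than the trend are not covered by these rates. Of the gene symbols, 15636 matched 1 gene of GENCODE vM39. Near copies were searched with blastn.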

Additional observations from a re-analysis of the deposited data

Results flagged for a closer look

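The knockout effect differed between states for 4 members at an adjusted p under 0.05 in the interaction test of edgeR. For Il1b the effect in M1 minus that in M0 was -4.27 ± 0.61 on the log2 scale (adjusted p = 0.000179), and it was higher in 3 of 3 Prep-/- libraries in M0 and lower in 3 of 3 in M1. The same difference between M2 and M0 was -3.24 ± 0.92 (adjusted p = 0.0365). That call was lost on leaving out single libraries, as given above. For Nlrp3 the effect in M1 minus that in M0 was -1.43 ± 0.33 (adjusted p = 0.00551). For Il18bp it was -1.27 ± 0.37 (adjusted p = 0.0194), with the knockout higher in both states. The Il18bp call was lost without the first Prep-/- M0 library or the third Prep+/- M0 library. For Gsdmd it was -0.49 ± 0.17 (adjusted p = 0.0456), under the fold change criterion. The first Prep-/- M0 library, which had the highest Il1b and Il18bp of its group, moved the difference of Il1b between M1 and M0 to -3.41 (adjusted p = 0.000252) when it was left out. In groups of 3 samples no test for single outlying libraries was run.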

How the results depend on the processing

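Of 284 recomputed counts of called genes, 32 moved by more than 1.5 times. Among 1405 recomputed fold changes of members, 29 changed sign. Of those that kept their sign, 34 lost a call and 17 gained one. Some that changed sign also gained a call, as Il1rn did in M2 without the third Prep-/- library. A test against the 1.5-fold threshold itself (glmTreat) called 3 members in M0, 2 in M1 and 1 in M2 between genotypes. It dropped Il18 (adjusted p = 0.255) and Gsdmd (0.162) in M0, and Gsdmd in M2. In M1 it dropped Il18bp (0.352), Nlrp3 (0.109) and Casp4 (0.0532). It called 1 member for M2 against M0 in Prep+/- BMDMs and 0 for the difference between M2 and M0. For the other pathway genes it called 9 in M0, 5 in M1 and 4 in M2, then 18 for M1 against M0 in Prep-/-, 5 for M2 against M0 in Prep+/-, 3 for the difference between M1 and M0, and 1 between M2 and M0. With the compared groups only, 6 other pathway genes were called between genotypes in M2. DESeq2 called 4 members for M2 against M0 in Prep+/- BMDMs and 2 for the difference between M2 and M0. Leaving out 1 library gave 1 to 4 members between genotypes in M2, 1 to 2 for M2 against M0 in Prep+/-, 0 to 1 for the difference between M2 and M0, and 10 to 19 (M1), 6 to 13 (M2) and 2 to 8 (difference between M2 and M0) other pathway genes. The members called for the difference between M2 and M0 were also 0 without both M2 libraries numbered 3, a setting chosen after seeing the data. Under that setting the log2 fold change of Il1rn was -1.17 between genotypes in M2, -0.40 for M2 against M0 in Prep+/-, -0.84 in Prep-/-, and -0.44 for the difference between M2 and M0, that of Il18 in M2 was 0.13 and that of Casp4 for M2 against M0 in Prep-/- was 0.021. With a replicate block in the compared groups only, Il1rn in M2 was -0.29, and the block changed no member's call in the paired comparisons. In M2 against M0 of Prep-/- BMDMs, whose numbers did not pair, it ended the call of Il1a (1.95, adjusted p = 0.0582). In the 5 comparisons whose numbers did not pair the samples, correlations ranged from -0.315 to 0.245.

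Sign changes on leaving out 1 library, as lowest and highest log2 values, were found for these values, none of which had passed a test with all libraries. Between genotypes they were -0.036 to 0.26 for Pycard and -0.022 to 0.10 for Casp1 in M0, -0.15 to 0.17 for Il1rn in M1, and -0.48 to 0.14 for Il18 and -1.998 to 1.57 for Il1rn in M2. For M2 against M0 they were -0.40 to 0.75 for Il1rn in Prep+/-, and -0.84 to 2.44 for Il1rn, -0.055 to 0.25 for Pycard and -0.36 to 0.14 for Casp4 in Prep-/-. For differences of the knockout effect they were -0.19 to 0.35 for Casp4 (M1), -0.32 to 1.502 for Il1a, -1.26 to 2.31 for Il1rn and -0.34 to 0.25 for Il18bp (M2). For log2 ratios of Il1b they were -0.050 to 0.19 to Il1a in M1, -0.80 to 0.22 to Il1a and -1.56 to 0.59 to Il1rn in M2, and -0.17 to 0.39 to Il18 and -1.43 to 0.045 to Il1rn for M2 against M0 in Prep+/-. The cause was not tested. Depth limits Il1a outside M1 and Il1b in M2, where single libraries held 1 to 29 counts.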
